A study of Mus musculus with 6 samples.

Results

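The genes described here are the chemokine ligands, a set of 34 listed symbols of which 33 were in the tables of all 6 libraries, out of 19349 genes; Cxcl11 was not analysed here. They were chosen by name, not by their values. The study isolated liver non-parenchymal cells from male C57BL/6J mice with nonalcoholic steatohepatitis (NASH), kept on a high-fat diet for 24 weeks from 8 weeks of age, and sequenced them cell by cell on the 10x Genomics Chromium platform. Over the last 8 weeks of the diet the mice were given, by the intragastric route, either the vehicle (DMSO) or the biflavonoid ginkgetin in a daily dose of 10 mg/kg. Both groups had the same diet, so the comparison is of treated with untreated mice on that diet, and the libraries had no lean animals. There were 3 libraries per group. The labels do not tie a library to 1 animal, so p-values measure only the spread between these libraries.

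Chemokines are small secreted proteins that bind heparan sulfate and guide leukocytes through G protein-coupled receptors. They are named by the spacing of their first cysteines (CC, CXC, C and CX3C), and a few are made constitutively in tissue niches while most are induced by inflammatory signals. In steatohepatitis, the CCR2 ligands made by liver macrophages and stellate cells are known for drawing monocytes into the liver, the CXCR3 ligands for T cells, and Cxcl1 and its relatives for neutrophils.

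The 6 libraries held 3336 to 6918 cells that passed the filter and 11766342 to 42746628 unique molecular identifiers (UMIs, 1 per captured transcript) in them, with a median of 2483 to 8412 UMIs per cell. In all, 27544 of 33168 barcodes were kept, and 258 barcodes occurred in more than 1 library. Replicate 3 of both groups used another set of barcodes and of gene symbols than replicates 1 and 2. No chemokine ligand was among the symbols that differed, and values within these 2 sets of libraries are given beside the main results. Cells were grouped without using the chemokine genes and named from marker genes, each cluster by at least 3 of them, with "-like" after the name. In all, 12 such classes had enough cells in at least 2 libraries per group to be tested.

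The members differed in the class where their level was highest, given here in CPM (UMIs of the gene scaled to a total of 1e+06 UMIs of the class), as the mean over libraries. Among the CC ligands of inflammatory monocytes and macrophages, Ccl6 and Ccl9, both CCR1 ligands, had their highest means over all 6 libraries in monocyte-like cells, at 731.4 and 551.5 CPM. For Ccl6 this order held in the ginkgetin libraries only: in each vehicle library it was higher in macrophage-like cells (939.3, 865.6 and 652.2 CPM) than in monocyte-like cells (602.1, 737.7 and 536.1 CPM). Macrophage-like cells held 85.59% of the UMIs of Ccl24, an eosinophil attractant that binds CCR3, over all libraries and 78.64 to 96.48% in each. They held 92.76% of those of Ccl8, a monocyte attractant, but 7.258% in ginkgetin 2, where Ccl8 had 124 UMIs. For Pf4, platelet factor 4, their 88.87% over all libraries came from vehicle libraries with 87.38 to 96.81%, while in ginkgetin 1, 2 and 3 they held 58.4%, 30.52% and 47.92% of its UMIs. The CCR4 ligands Ccl17 and Ccl22, which draw T cells to dendritic cells, had 94.12% and 88.78% of their UMIs in conventional dendritic-like cells.

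Lymphocytes and structural cells carried other ligands. Ccl5, an attractant of T cells and monocytes stored by cytotoxic cells, averaged 22390 CPM in NK cell-like cells, where Xcl1, which attracts XCR1-bearing dendritic cells, averaged 1761 CPM. Stellate-like cells had 4100 CPM of Cxcl12, the CXCR4 ligand that retains cells in marrow and stromal niches, and 83.22% of all its UMIs. They also held 73.58% of the 193 UMIs of Ccl19, a CCR7 ligand of lymphoid stroma. Endothelial-like cells held 54.1% of the UMIs of Cxcl9 and 47.87% of those of Cxcl10, the interferon-induced CXCR3 ligands, and 91.01% of those of Ccl21a, a CCR7 ligand of lymphatic vessels whose near-identical gene copies may share reads with it. Its endothelial-like UMIs were 36 in vehicle 2 and 217 in ginkgetin 3, with 0 in the other 4 libraries, and at most 0.4065% of the class had one. Several members were scarcely detected in any class: Ccl28 had 13 UMIs in all kept cells, Ppbp 37, Cxcl3 47 and Ccl20 62.

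**Figure D1:**
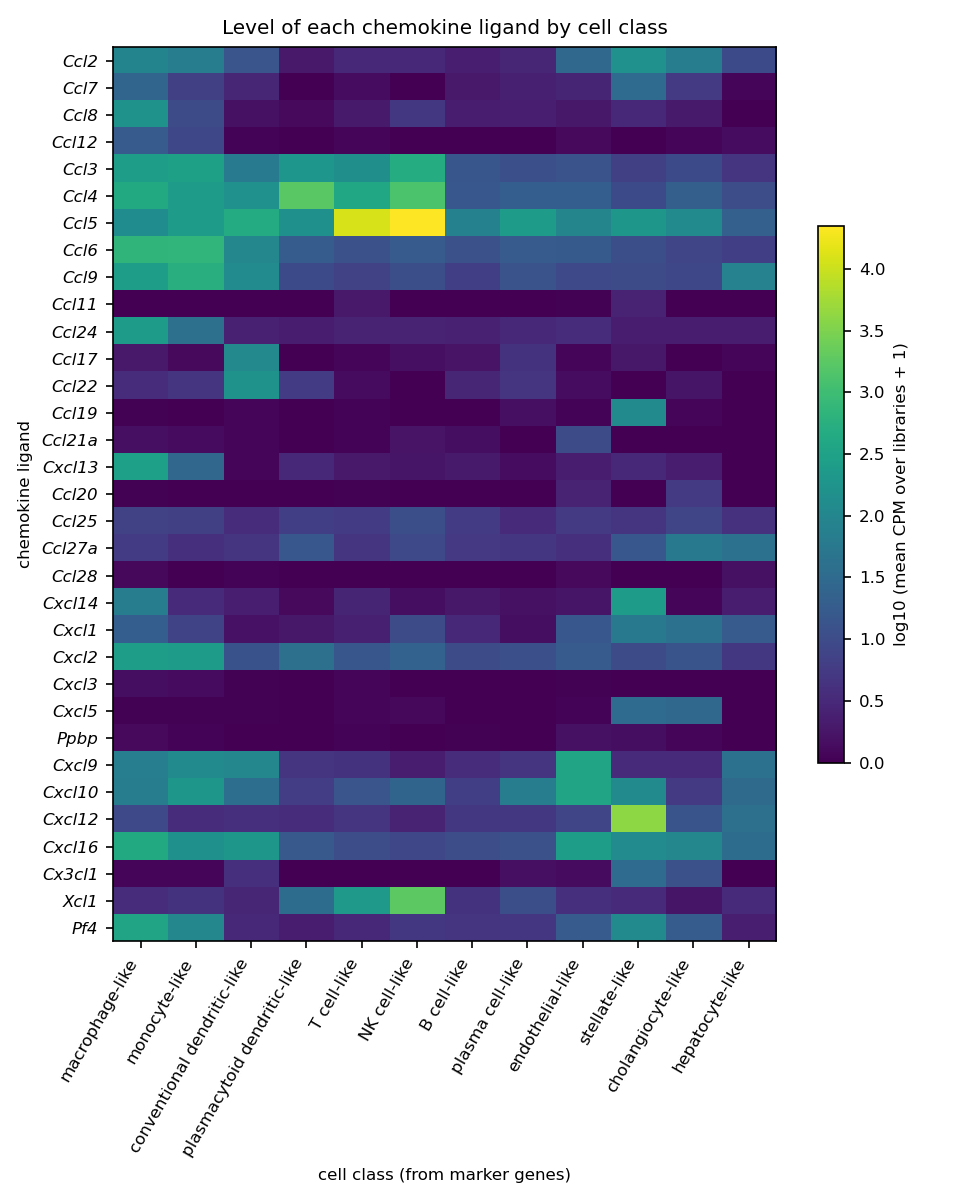
Heat map of the level of the 33 chemokine ligands (rows) in the 12 tested cell classes (columns), as log10 of the mean CPM over libraries plus 1, with brighter colours for higher levels. Ccl5 in NK cell-like cells (22390 CPM) and Cxcl12 in stellate-like cells (4100 CPM) are bright single cells of the map, while Ccl6 and Ccl9 are shared by macrophage-like and monocyte-like cells.

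Among the classes, calls were made only in macrophage-like cells, where edgeR found that Ccl9, Ccl12 and Cxcl14 were lower and Cxcl13 was higher with ginkgetin. Of 23 members tested there, these 4 were called, meaning an adjusted p under 0.05 and a change over 2-fold in edgeR's quasi-likelihood test with Benjamini-Hochberg adjustment over all 10437 genes tested. Of all those genes, 10.9% were called (5.02% lower and 5.85% higher), so 4 of 23 was not far from the background. The median log2 fold change of the 23 members was -0.25, against 0.02 over all genes, and 15 of 23 were below 0, against 49.0% of all genes. Macrophage-like cells numbered 1280, 759 and 1146 in vehicle libraries 1 to 3 and 106, 257 and 570 in ginkgetin libraries 1 to 3.

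The 250 bases before the annotated transcription start of Ccl9, Ccl12 and Cxcl13 are printed because their levels differed in opposite directions in the same class. The macrophage-like cells of the groups came mostly from different clusters, as described below. They are RefSeq sequences of build GRCm38.p6, read 5′ to 3′ on the strand of the gene, and capitals mark matches, on either strand, to short motifs described after them. The window given for Cxcl14 lies inside that gene as its longest RefSeq model annotates it and is not shown.
Ccl9, chr11:83578637-83578886, minus strand: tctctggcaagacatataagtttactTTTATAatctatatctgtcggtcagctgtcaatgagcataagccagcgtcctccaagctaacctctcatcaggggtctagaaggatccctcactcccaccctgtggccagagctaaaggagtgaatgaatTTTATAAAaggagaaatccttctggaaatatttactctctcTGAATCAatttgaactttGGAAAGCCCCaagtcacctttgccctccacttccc
Ccl12, chr11:82101595-82101844, plus strand: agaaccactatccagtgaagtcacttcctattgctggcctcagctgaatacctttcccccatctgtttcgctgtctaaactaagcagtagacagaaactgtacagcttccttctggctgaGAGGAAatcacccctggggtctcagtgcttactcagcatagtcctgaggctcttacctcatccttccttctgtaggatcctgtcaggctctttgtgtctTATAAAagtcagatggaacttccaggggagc
Cxcl13, chr5:95956689-95956938, plus strand: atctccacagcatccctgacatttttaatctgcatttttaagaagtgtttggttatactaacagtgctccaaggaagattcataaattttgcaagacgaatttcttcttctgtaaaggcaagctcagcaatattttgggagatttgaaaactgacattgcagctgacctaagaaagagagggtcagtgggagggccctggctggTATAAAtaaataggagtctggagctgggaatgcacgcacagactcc

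The windows end at the base before the annotated start, and each is set against the 32851 windows of the same length before RefSeq starts. The TATA box motif TATAAA occurred in all 3 windows and in 12.4% of all windows. Ccl9 had it 3 times, of which the pair around base 90 before the start overlap on opposite strands. Nearer the start, Ccl9 had a match to the AP-1 motif (TGA and TCA spaced by 1 base, in 6.75% of all windows) and to the NF-kB motif (GGG and TTCC spaced by 3 bases, in 4.65%). The core GAGGAA of the myeloid factor PU.1 was in the Ccl12 window and in 23.3% of all windows. The STAT motif GAS (TTC and GAA spaced by 3 bases, in 7.02%) and the interferon element ISRE (GAAA and GAAA spaced by 2 bases, in 2.98%) were searched too and had no match in these 3. A match is a description of letters and not of a bound factor.

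Ccl9, a CCR1 ligand that attracts myeloid cells, had 687.9, 693.2 and 424.5 normalised CPM in vehicle macrophage-like cells and 8.275, 19.98 and 23.10 with ginkgetin (CPM after scaling by edgeR's TMM factors). Every ginkgetin library was far below every vehicle library. The means were 601.9 ± 154 and 17.12 ± 7.82 (SD, n = 3 each), and the fitted log2 fold change was -5.03 ± 0.41 (SE, adjusted p = 0.0103, edgeR), a 32.7-fold change. The ginkgetin levels rested on 3, 17 and 67 UMIs, and the vehicle levels on 3815 to 7484. In log2 units the difference was -5.61 within replicates 1 and 2 and -4.20 within replicate 3. After each cell was thinned to 1000 UMIs, 24.8 to 31.1% of vehicle and 0.778 to 1.95% of ginkgetin macrophage-like cells had a Ccl9 UMI (60 to 73.3% and 1.89 to 5.09% before thinning). In B cell-like cells, which should lack the gene, the thinned shares were 0.374 to 1.27% and 0 to 0.643%, so the ginkgetin macrophage-like share was little above the background of free RNA.

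Cxcl14, a chemokine found in epithelia and some myeloid and stromal cells, had 107.2, 124.8 and 108.8 normalised CPM with vehicle and 35.86, 38.79 and 30.34 with ginkgetin. Both groups were tight and far apart, at 113.6 ± 9.76 and 34.99 ± 4.29 (SD, n = 3 each), and the fitted log2 fold change was -1.71 ± 0.19 (SE, adjusted p = 0.0115). Ccl12, a mouse CCR2 ligand, had 37.04, 19.81 and 28.66 normalised CPM with vehicle and 8.275, 9.403 and 6.550 with ginkgetin. The groups did not overlap, but the ginkgetin levels came from 3, 8 and 19 UMIs, and the log2 fold change was -1.87 ± 0.33 (SE, adjusted p = 0.0189). Within replicates 1 and 2 and within replicate 3 the Cxcl14 difference was -1.64 and -1.84 and that of Ccl12 -1.69 and -2.13 in log2 units.

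Cxcl13, which draws B cells through CXCR5 and is made by resident macrophages of several tissues, went the other way. It had 5.239, 28.71 and 5.136 normalised CPM with vehicle and 1067, 215.1 and 233.4 with ginkgetin. All ginkgetin libraries were above all vehicle libraries, but ginkgetin 1 was far above the other two. The means were 13.03 ± 13.6 and 505.3 ± 487 (SD, n = 3 each), and the fitted log2 fold change was 5.29 ± 1.05 (SE, adjusted p = 0.0234). It was 5.24 within replicates 1 and 2 and 5.51 within replicate 3. Thinned to 1000 UMIs, 0.391 to 2.11% of vehicle and 13.6 to 31.1% of ginkgetin macrophage-like cells had a Cxcl13 UMI, against 0% and 0 to 0.318% of B cell-like cells.

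**Figure D2:**
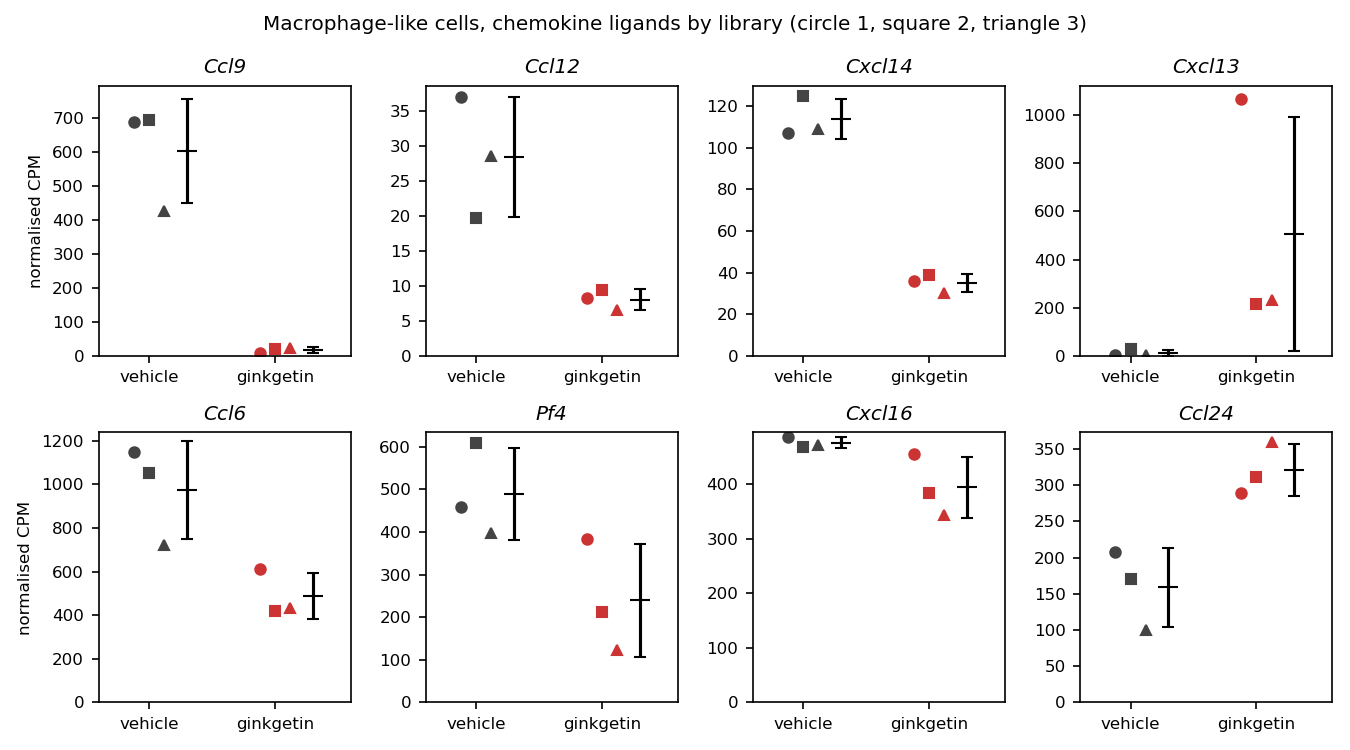
Normalised CPM (vertical axes, linear, from 0) of 8 chemokine ligands in macrophage-like cells of the 3 vehicle and 3 ginkgetin libraries, with the marker shape giving the library number and bars the mean ± SD. Ccl9 fell from 601.9 to 17.12 on average and Cxcl13 rose from 13.03 to 505.3, while Ccl6, Pf4, Cxcl16 and Ccl24 were not called although their groups do not overlap.

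A further 5 members differed in macrophage-like cells without overlap but were not called. In all, 9 of 23 members did not overlap, against 37.9% of all genes, which is close to the background. Ccl6, the CCR1 ligand whose gene neighbours Ccl9 on chromosome 11, had 1147, 1052 and 720.4 normalised CPM with vehicle and 609.6, 420.8 and 431.6 with ginkgetin, a log2 fold change of -1.0 (adjusted p = 0.0544). The eosinophil attractant Ccl24 had 207.5, 169.7 and 99.75 against 289.6, 311.5 and 359.6, so it was higher in each ginkgetin library, by 1.01 ± 0.29 log2 units (adjusted p = 0.0628). Pf4 had 458.7, 608.7 and 398.9 against 383.4, 212.7 and 123.1 (log2 fold change -1.04, adjusted p = 0.138). DESeq2 called 7 members, against 13.8% of genes. With the replicate number as a block, edgeR called 8, against 16.0% of all genes: the same 4 and Ccl24 (1.09), Pf4 (-1.17), Ccl22 (-2.46) and the neutrophil attractant Cxcl1 (-2.69, whose groups overlapped).

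Cxcl16, the transmembrane ligand of CXCR6 on liver T and NKT cells, lay close together in both groups, at 487.4, 468.4 and 471.6 against 455.1, 384.4 and 344.1 normalised CPM (log2 fold change -0.27, adjusted p = 0.388). That sign rested on the scaling, since without TMM factors it was 0.18. Ccl22 was near its floor, with 3.125, 5.815 and 6.654 against 0, 0 and 1.724 normalised CPM. The main CCR2 ligand Ccl2 had 90.82, 104.1 and 91.06 against 60.68, 91.68 and 99.29, and its groups overlapped (log2 fold change -0.16, adjusted p = 0.667). Cxcl2, which attracts neutrophils through CXCR2, spread over the vehicle libraries more than between the groups, at 108.6, 423.4 and 946.0 against 157.2, 101.1 and 75.50 (log2 fold change -2.17, adjusted p = 0.0913). Ccl8 was at 830.2 in ginkgetin 1 and at 10.58 and 16.55 in the other ginkgetin libraries, with vehicle libraries between 26.53 and 111.2. Ccl3 and Ccl4, macrophage inflammatory proteins that attract leukocytes, also overlapped. Their RefSeq gene models overlap in position, so how reads were shared between them is uncertain.

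Leaving out any of 5 of the 6 libraries lowered the number of calls in macrophage-like cells. Without vehicle 1, vehicle 2 or ginkgetin 2, no gene of any kind was called by edgeR and so no member, with 9, 7 and 7 members at an unadjusted p under 0.05, against 20.7%, 20.2% and 25.8% of all genes. Without vehicle 3 there were 5 calls among the members, against 12.6% of all genes, and without ginkgetin 1 or ginkgetin 3 there were 2 each, against 5.38% and 3.35%: Ccl9 and Cxcl14 stayed, while Ccl12 (adjusted p = 0.0521 and 0.0698) and Cxcl13 (0.0628 and 0.0548) were lost. The log2 fold change of Ccl9 stayed between -5.43 and -3.95 over 19 alternatives and it was called in 16. Cxcl14 was called in 16 (-1.84 to -1.24), Ccl12 in 13 (-2.52 to -1.37) and Cxcl13 in 13 (3.28 to 6.61).

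The macrophage-like cells of the groups came mostly from different clusters, so the values inside clusters stand beside the class. Cluster 1, led by Fabp7, C1qc and C1qb, held 99.9% of these cells in vehicle 1 and vehicle 2 but 17.0% and 24.1% in ginkgetin 1 and ginkgetin 2, where cluster 26, led by Cd163, C6 and Marco, held 82.1% and 75.9%. In replicate 3, clusters 10 and 21 held 64.1% and 35.0% of the vehicle cells and cluster 17, again led by Marco, C6 and Cd163, held 91.6% of the ginkgetin cells. Marco, Cd163 and Timd4 are genes of resident Kupffer cells, while Gpnmb and Trem2, among the leading genes of cluster 10, are genes of lipid-associated macrophages. Vehicle clusters had Kupffer genes too: Adgre1, the study's marker of Kupffer cells, was among the leading genes of cluster 21. Clusters 21 and 17 shared Clec4f, and clusters 21 and 26 shared Vsig4. At a finer clustering (Leiden resolution 2), a cluster with Vsig4, Cd5l and Clec4f among its leading genes held 688 and 406 cells of vehicle 1 and 2. One led by Ms4a7, Trem2 and Gpnmb held 521 and 306.

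Inside clusters, the called members did not all differ as they did in the class. In cluster 1, Ccl9 was at 564 and 571 CPM in vehicle 1 and 2 (1279 and 758 cells) and at 18.6 and 46.9 CPM in ginkgetin 1 and 2 (18 and 62 cells, 2 and 14 UMIs). In cluster 10 it was at 450 CPM in vehicle 3 (735 cells) and 149 CPM in ginkgetin 3 (37 cells). Cxcl14 in cluster 1 was at 87.8 and 103 CPM with vehicle and 83.8 and 73.7 CPM with ginkgetin, in cluster 10 at 125 and 140 CPM, and in cluster 21 at 59.1 CPM with vehicle and 187 CPM with ginkgetin (11 cells, 6 UMIs), so in none of the 3 did it show the difference of the class. Ccl12 in cluster 1 was at 30.3 and 16.3 CPM with vehicle and 18.6 and 20.1 CPM with ginkgetin, which overlap, and in cluster 10 at 25.4 and 15.2 CPM. In cluster 21 it was at 26.9 CPM with vehicle and had 0 UMIs with ginkgetin, where 3 UMIs would be 93.4 CPM. Cxcl13 in cluster 1 was at 4.29 and 23.6 CPM with vehicle and 223 and 117 CPM with ginkgetin, and the clusters led by Marco and Cd163 had 1510, 330 and 356 CPM in ginkgetin 1, 2 and 3. Ccl24 in cluster 1 was no higher with ginkgetin (83.8 and 131 against 170 and 140 CPM), in cluster 10 it was at 15.2 against 16.9 CPM and in cluster 21 at 342 (11 cells, 11 UMIs) against 199 CPM, and the Marco and Cd163 clusters had 401, 503 and 565 CPM. Differences inside clusters were not tested.

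Markers of other cell types also differed in the macrophage-like sums, where 9 of 17 lists were higher in every ginkgetin library. Endothelial markers summed to 254 to 305 CPM with vehicle and 1020 to 1990 with ginkgetin, and 8 of 10 were called higher. B cell markers summed to 79.0 to 84.1 against 148 to 310 CPM (3 of 5 tested called higher) and T cell markers to 4.44 to 13.8 against 39.8 to 86.9 CPM (0 of 5). Their part in the chemokine differences was not tested. Cxcl13 had a UMI in 0.501 to 0.699% of ginkgetin endothelial-like cells and in 0.318 to 0.827% of ginkgetin B cell-like cells, far below the macrophage-like share of 21.4 to 51.9% before thinning.

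Monocyte-like cells also expressed Ccl6, Ccl9, Ccl24 and the CXCR3 ligands. None of 17 members tested was called there, nor was any of 8299 genes (0.0%), and 4 members did not overlap, against 21.0% of all genes. Ccl9 had 790.4, 924.6 and 377.5 normalised CPM with vehicle and 473.9, 518.0 and 348.9 with ginkgetin, and its groups overlapped (log2 fold change -0.64, adjusted p = 0.474). Ccl6 was at 645.7, 823.1 and 509.4 against 783.1, 1092 and 628.5 (0.34), with groups that overlapped. Ccl24 had 83.43, 59.08 and 48.98 against 14.47, 24.12 and 14.86, lower in every ginkgetin library (log2 fold change -1.83 ± 0.31, adjusted p = 0.165, and -1.76 and called with the replicate block). Ccl2 had 55.75, 125.7 and 88.84 against 36.17, 35.65 and 53.79 (-1.08, adjusted p = 0.262, and -1.06 and called with the block), and Cxcl10 had 196.8, 258.9 and 344.0 against 170.0, 132.1 and 98.38 (-1.0, adjusted p = 0.262). Both groups of each were apart, by less than the test required. Of 17 marker lists of other cell types, 5 summed higher in every ginkgetin library of this class, and no marker was called. Among them were endothelial markers, at 306 to 361 against 395 to 1100 CPM, conventional dendritic markers, at 90.3 to 134 against 155 to 223, and T cell markers, at 5.49 to 10.1 against 22.6 to 47.0. Their part in these values was not tested.

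The differences of these changes between macrophage-like and monocyte-like cells were tested with limma on paired differences per library, a comparison chosen after the data were seen. No member passed an adjusted p of 0.05 (0 of 23, against 0.019% of 10551 genes), with 9 members at an unadjusted p under 0.05, against 17.1% of all genes. The 3 lowest were Ccl9, which was lowered more in macrophage-like cells (a difference of -4.57 ± 0.51 SE in log2 fold change, adjusted p = 0.0568), Ccl24 (2.94 ± 0.37, adjusted p = 0.0624) and Cxcl13 (7.02 ± 0.98, adjusted p = 0.0698). Against endothelial-like cells, 0 of 23 members differed (0.893% of 11313 genes), with 5 at an unadjusted p under 0.05 (21.2% of all genes were) and the lowest adjusted p at 0.103 for Ccl2.

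**Figure D3:**
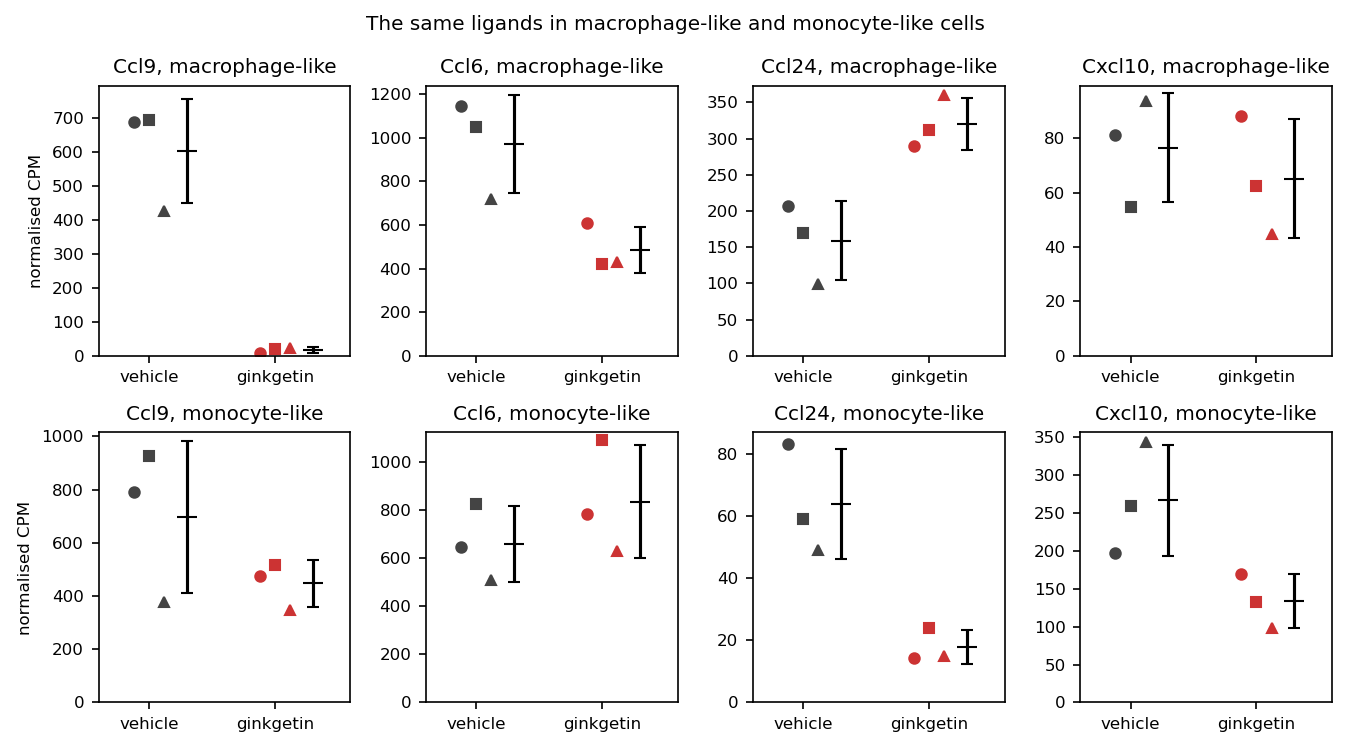
Normalised CPM (vertical axes, linear, from 0) of Ccl9, Ccl6, Ccl24 and Cxcl10 in macrophage-like (upper row) and monocyte-like (lower row) cells by library, with the mean ± SD beside each group of 3. Ccl9 fell to between 8.275 and 23.10 with ginkgetin in macrophage-like cells and lay between 348.9 and 518.0 in monocyte-like cells, where the vehicle libraries were between 377.5 and 924.6, and Ccl24 lay above the vehicle libraries in the former and below them in the latter.

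In the 11 classes other than macrophage-like cells, edgeR called 0 of 99 pairs of a member and a class, with 29 at an unadjusted p under 0.05 (12.7% of all genes in these classes were), and limma-voom also called 0. Over all genes in these classes edgeR called 0.0837%. DESeq2 called 12 of the 99 pairs, all lower, against 1.19% of all genes, and edgeR with the replicate block called 18, of which 17 were lower, against 2.27%. Of the 99 pairs, 69 had a log2 fold change below 0. Other pairs called with the block but not in the unblocked edgeR test were Ccl9 (-2.57) and Cxcl2 (-3.01) in endothelial-like cells, Cxcl10 (-2.03) and Cxcl2 (-2.45) in conventional dendritic-like cells, Cxcl2 (-2.97) in T cell-like cells, Cxcl1 (-1.45) in cholangiocyte-like cells and Ccl5 (1.26) in monocyte-like cells. Free RNA was not corrected for: Ccl9 had a UMI in 1.5 to 4.14% of vehicle and 0 to 0.827% of ginkgetin B cell-like cells, and its part in such differences was not tested.

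Endothelial-like cells had lower values of the CXCR3 ligands with ginkgetin, short of a call in the unblocked edgeR test. Cxcl9 had 410.7, 427.6 and 731.1 normalised CPM with vehicle and 191.9, 142.2 and 189.5 with ginkgetin, with no overlap (log2 fold change -1.58 ± 0.29, adjusted p = 0.0867). Cxcl10 had 308.5, 446.6 and 723.8 against 243.8, 172.3 and 213.9 (-1.23 ± 0.34, adjusted p = 0.195). Ccl2 had 77.85, 85.71 and 12.04 against 3.786, 4.401 and 3.076 (-3.94, adjusted p = 0.0917), so vehicle 3 lay apart from the other vehicle libraries. The replicate block called all 3 (-1.55, -1.17 and -3.52) among 5 of 15 members, against 4.46% of genes, while the unblocked test called 0.477% of genes and no member. DESeq2, the filter on UMIs (the study's cell filter read as UMIs per cell) and the use of replicates 1 and 2 alone each called 4 of 15 members, all lower, against 2.94%, 3.09% and 3.62% of genes. Of the 15 members, 5 did not overlap, against 20.7% of genes. Cxcl16 was close in both groups, at 304.5, 269.7 and 195.3 against 326.7, 297.3 and 236.5 (0.16, adjusted p = 0.849).

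The endothelial-like cells of the groups also came mostly from different clusters. Cluster 5, led by Fabp4, Lyve1 and Inhbb, held 1043 and 476 cells of vehicle 1 and 2 and 7 and 4 of ginkgetin 1 and 2, while cluster 0, led by Pde2a, Sepp1 and Ehd3, held 0 and 16 of the former and 1190 and 2842 of the latter. In replicate 3, cluster 7 held 8 vehicle and 982 ginkgetin cells, and cluster 15 held 407 and 154. In cluster 0, Cxcl9 was at 196 CPM in vehicle 2 (8 UMIs) and at 175 and 138 CPM in ginkgetin 1 and 2, so little of the class difference was seen there, and Cxcl10 was at 391 CPM against 218 and 171. In cluster 15, Cxcl9 was at 823 CPM with vehicle and 83.9 with ginkgetin, and Cxcl10 at 809 and 118. Cluster 15, led by Cavin2, Cebpd and Cavin1, also had Esm1, Ednrb and Vwf among its leading genes. At Leiden resolution 2, a cluster led by Esm1, Cebpd and Selenop held 328 vehicle 3 and 10 ginkgetin 3 cells. An unnamed one led by Ednrb, Cavin2 and Adgrg6 held 55 and 159. The groups in cluster 15 may therefore hold different endothelial cells, which was not tested. Monocyte markers summed to 180 to 279 CPM in vehicle and 41.4 to 97.5 CPM in ginkgetin endothelial-like cells, without overlap, and 0 of 3 tested were called. Mesothelial markers were likewise lower, at 24.5 to 49.5 against 4.65 to 6.07 CPM, with the 1 tested, Gpm6a, called lower. Macrophage markers summed to more with ginkgetin (1290 to 1410 against 1500 to 2060 CPM), although 1 of 12, Gpnmb, was called lower. Of 17 marker lists of other cell types, 2 were above and 3 below the vehicle libraries in every ginkgetin library. The part of the clusters and of these markers in the ligand differences was not tested.

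Lymphocytes had lower values of Ccl3, Ccl4 and Xcl1 in T cell-like cells with ginkgetin, again short of a call. There Ccl3 had 338.1, 347.4 and 107.8 normalised CPM against 99.56, 21.20 and 9.154 (log2 fold change -2.62, adjusted p = 0.390, and -3.08 and called with the replicate block). With the barcode set as the added term in place of the replicate number, 0 of 14 members were called in this class, against 30 of 9636 genes. Ccl4 had 794.3, 702.6 and 393.5 against 376.4, 79.04 and 46.53 (-1.91, adjusted p = 0.442), and Xcl1 had 293.1, 389.9 and 210.5 against 175.5, 150.5 and 142.8 (-0.93, adjusted p = 0.340). None of the 3 overlapped, but the ginkgetin libraries differed several-fold among themselves for Ccl3 and Ccl4. In all, 6 of 14 members did not overlap in this class, against 18.1% of genes. In NK cell-like cells, a class named in 2 libraries of each group, Xcl1 had 2469 and 2659 normalised CPM with vehicle and 1164 and 1128 with ginkgetin (-1.16, adjusted p = 0.103, called with the block), and Ccl5 had 22040 and 20000 against 29080 and 23670 (0.33, adjusted p = 0.323). Replicate 3 had 189 vehicle and 297 ginkgetin cells in cluster 18, led by Gzma, Ncr1 and Prf1, which was left unnamed. At Leiden resolution 2 the NK cell-like class had 3 libraries per group, and 0 of 4 members tested were called, against 2 of 5261 genes. Ccl5 in T cell-like cells overlapped widely, from 8655 to 23540 against 1719 to 18330.

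The T cell-like cells of the groups were again divided differently among clusters. Cluster 6, led by Cd8b1, Gzmk and Cd8a, held 599 and 291 cells of vehicle 1 and 2 and 317 and 34 of ginkgetin 1 and 2, and cluster 16, led by Dapl1, Lef1 and Nsg2, held 6 and 19 against 121 and 412. In replicate 3, cluster 8 held 726 vehicle and 253 ginkgetin cells and cluster 24 held 60 and 333. Ccl3 in cluster 6 was at 551 and 633 CPM with vehicle and 294 and 75.7 CPM with ginkgetin (7 UMIs in the last), and in cluster 8 at 128 and 20.4 CPM. Ccl4 in cluster 6 was at 1300 and 1310 CPM against 1090 and 692, and in cluster 24, where it was low, at 9.96 CPM (3 UMIs) with vehicle and 58 CPM with ginkgetin. Macrophage markers summed to 230 to 324 CPM in vehicle and 80.4 to 191 CPM in ginkgetin T cell-like cells, and endothelial markers to 69.7 to 92.8 against 213 to 938, both without overlap and with none called. The part of the clusters and of these markers was not tested.

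In conventional dendritic-like cells the CCR4 ligands followed 1 library. Ccl17 had 94.79, 64.97 and 67.87 normalised CPM against 71.03, 37.80 and 292.0, and Ccl22 had 111.2, 238.9 and 120.5 against 19.78, 25.37 and 409.7. For both, ginkgetin 3 was above all vehicle libraries and ginkgetin 2 below them. Ccl9 had 207.2, 235.0 and 115.6 against 55.74, 76.11 and 63.48 (log2 fold change -1.51, adjusted p = 0.182, and -1.45 and called with the block), and Cxcl16 had 218.7, 272.6 and 227.9 against 151.1, 136.7 and 209.5 (-0.53, adjusted p = 0.315). In cholangiocyte-like cells Cxcl16 had 113.2, 73.16 and 309.7 against 35.17, 58.80 and 43.93 (-1.81, adjusted p = 0.220, and -1.62 and called with the block).

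In plasma cell-like cells Ccl5 had 291.0, 51.71 and 288.2 normalised CPM with vehicle and 562.4, 473.8 and 104.9 with ginkgetin, with groups that overlapped (log2 fold change 0.83, adjusted p = 0.667). Cxcl10 there had 284.6, 37.92 and 122.0 against 31.84, 15.15 and 3.745 (log2 fold change -3.30, adjusted p = 0.289, and -3.04 and called with the block), without overlap and with a wide spread in both groups. Stellate-like cells were tested in vehicle 2 and 3 and ginkgetin 1 to 3. Their main ligand Cxcl12 had 3881 and 3654 against 4915, 4591 and 5128 (0.37, adjusted p = 0.921), higher in every ginkgetin library by less than the test could call. Cxcl14 had 659.2 and 291.6 against 59.46, 226.1 and 153.5 (-1.59, adjusted p = 0.643). It was below the vehicle libraries there as in macrophage-like cells, and Pf4 had 258.3 and 164.8 against 118.9, 84.31 and 36.70 (-1.55, adjusted p = 0.617, and -1.86 and called with the block). Under the filter on UMIs that of Pf4 was 1.23, the opposite sign.

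Markers of other cell types moved in these smaller classes too, with none of them called. Macrophage markers summed lower with ginkgetin without overlap in NK cell-like (286 to 338 against 63 to 203 CPM), conventional dendritic-like (427 to 675 against 172 to 308) and stellate-like cells (305 to 336 against 113 to 227). Endothelial markers summed higher without overlap in NK cell-like (114 to 129 against 246 to 1120 CPM), conventional dendritic-like (166 to 205 against 389 to 1140) and cholangiocyte-like cells (65.5 to 142 against 191 to 938). Of 17 lists in each class, 5 did not overlap in NK cell-like and in conventional dendritic-like cells, 4 in cholangiocyte-like and in stellate-like cells and 1 in plasma cell-like cells. Their part in the chemokine values was not tested.

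**Figure D4:**
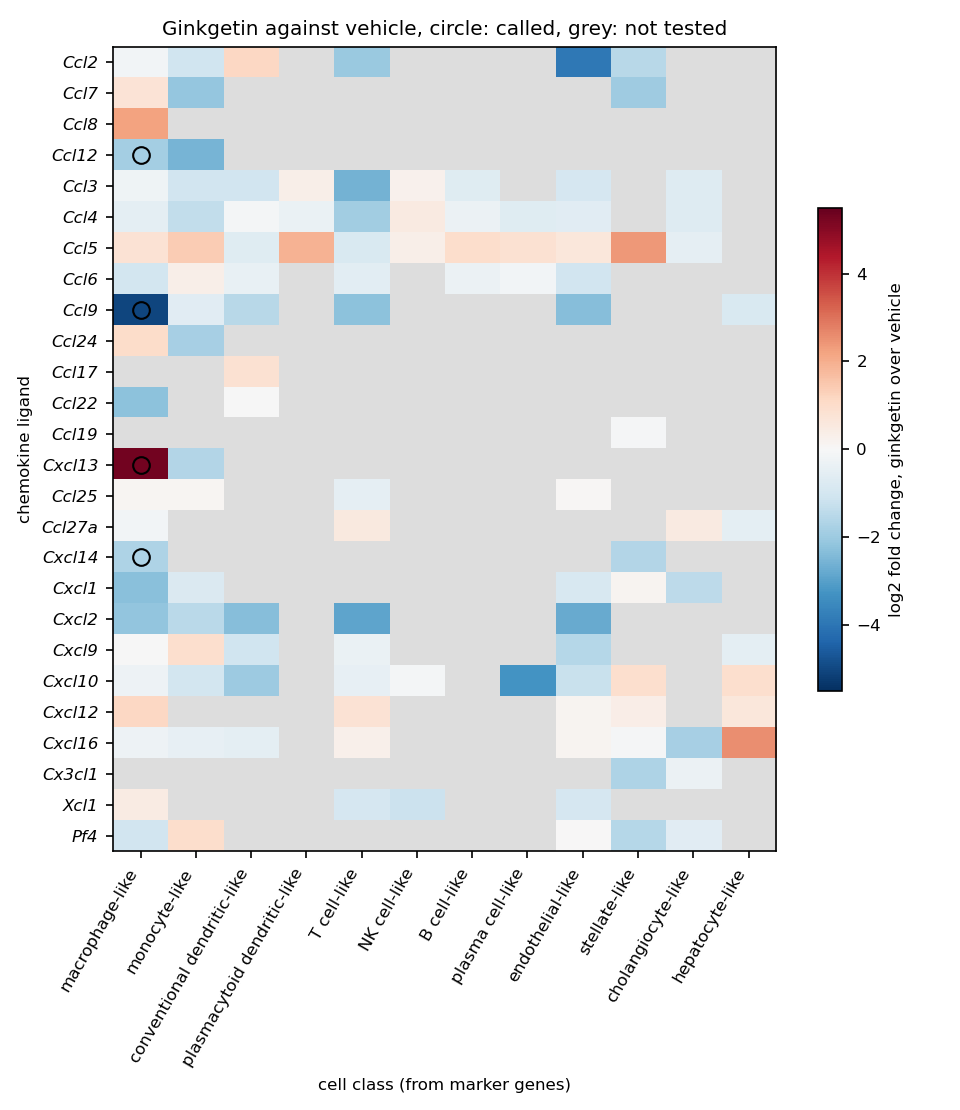
Heat map of the log2 fold change (ginkgetin over vehicle, blue lower and red higher) of each chemokine ligand (rows) in each cell class (columns), with grey for pairs not tested and circles for called pairs. The only circles are Ccl9, Ccl12, Cxcl13 and Cxcl14 in macrophage-like cells, and 69 of the 99 pairs in the other 11 classes lie below 0.

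Summed over all kept cells of a library, 12 of 28 members tested were called and all 12 were lower with ginkgetin, against 12.8% of all 14240 genes called, 6.24% lower and 6.56% higher. With the replicate block 13 members were called, against 17.3% of genes. This sum, added after the data were seen, mixes the class a transcript came from with its level in that class: fewer cells of a type and less RNA per cell cannot be told apart in it. Macrophage-like cells were 21.3 to 27.7% of vehicle and 3.03 to 15.6% of ginkgetin cells, monocyte-like cells 13.5 to 14.4% and 3.18 to 3.54%, and endothelial-like cells 10.1 to 17.3% and 31.4 to 41.1%. The median log2 fold change of the 28 members was -0.97 against 0.04 over all genes, and 15 members did not overlap, against 41.3% of genes.

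The called members had their highest levels in different classes. The CCR2 ligand Ccl12 had 14.23, 12.58 and 12.63 normalised CPM with vehicle and 0.6330, 0.5072 and 0.5612 with ginkgetin (log2 fold change -4.54). Ccl2 had 59.83, 68.64 and 63.54 against 8.863, 9.594 and 13.56 (-2.58), though its level inside macrophage-like cells overlapped. Ccl6 had 529.4, 519.4 and 396.1 against 72.17, 85.16 and 70.92 (-2.66), and Pf4 had 171.3, 241.2 and 179.1 against 21.52, 25.06 and 22.00 (-3.11). All 4 were tight within groups. Ccl9 (-3.66), Cxcl14 (-3.76), Cxcl2 (-4.27), Ccl7 (-2.20), Ccl3 (-1.95), Ccl24 (-1.85) and Ccl4 (-1.35) were also called, as was Cxcl5, which had 2.744, 0.8808 and 3.653 normalised CPM with vehicle and was at 0, 0 and 0.05907 with ginkgetin. Ccl24 was lower in whole libraries while it was higher per UMI of macrophage-like cells. Under the reading of the study's filter as UMIs per cell, the log2 fold change of Ccl24 in whole libraries was 1.43, the opposite sign. Under it no gene was called in whole libraries, and 8 members had an unadjusted p under 0.05, against 14.2% of genes.

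The share of all UMIs that were chemokine UMIs was 0.556%, 0.482% and 0.420% in vehicle libraries and 0.691%, 0.251% and 0.247% in ginkgetin libraries, a difference of means of -0.0894 percentage points (two-sided exact permutation test, p = 0.6, n = 3 each). Ccl5 made up most of the ginkgetin 1 value. With ginkgetin 1 left out the difference was -0.237 points and the groups did not overlap. Leaving out ginkgetin 2 or ginkgetin 3 gave -0.0165 and -0.015. It was -0.195 with each cell thinned to 1000 UMIs and -0.41 under the filter on UMIs, with overlap in both. Without Ccl5 the shares were 0.224%, 0.257% and 0.301% against 0.0918%, 0.0802% and 0.123%, with no overlap (p = 0.1 by the same exact test, the smallest that 3 against 3 allows). Inside macrophage-like cells the share was 0.356%, 0.383% and 0.448% against 0.515%, 0.353% and 0.304%, with overlap (difference -0.00495 percentage points, exact permutation p = 0.9). The sum of these ligands per UMI of macrophage-like cells therefore differed by less than the libraries within a group, while single ligands moved in both directions.

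The classes that held the chemokine UMIs had different shares in the groups. Macrophage-like cells held 23.2%, 29.3% and 47.3% of chemokine UMIs in vehicle libraries and 2.23%, 4.61% and 10.7% in ginkgetin libraries (means 33.3 ± 12.5 and 5.83 ± 4.34, exact permutation p = 0.1, n = 3 each). With each cell thinned to 1000 UMIs, which removes differences in depth between cells, the shares were 9.86%, 13.4% and 23.7% against 1.51%, 4.91% and 15.5%, and the groups overlapped (exact permutation p = 0.3, n = 3 each). Under the filter on UMIs the means turned round, with 2.40%, 5.99% and 2.54% against 1.18%, 4.50% and 19.05% (means 3.64 and 8.24, exact permutation p = 0.7, n = 3 each). T cell-like cells held 35.8% and 41.8% on average, and endothelial-like cells 2.59% and 9.26%. For Ccl9, macrophage-like cells held 62.9% of UMIs on average with vehicle and 4.03% with ginkgetin, and monocyte-like cells 29.2% and 68.9%. For Cxcl16, macrophage-like cells held 66.5% and 14.6% and endothelial-like cells 8.0% and 59.7%. Endothelial-like cells held 31.3% and 76.4% of the UMIs of Cxcl10 and 43.3% and 73.2% of those of Cxcl9, although the values of both per UMI of that class were lower with ginkgetin.

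**Figure D5:**
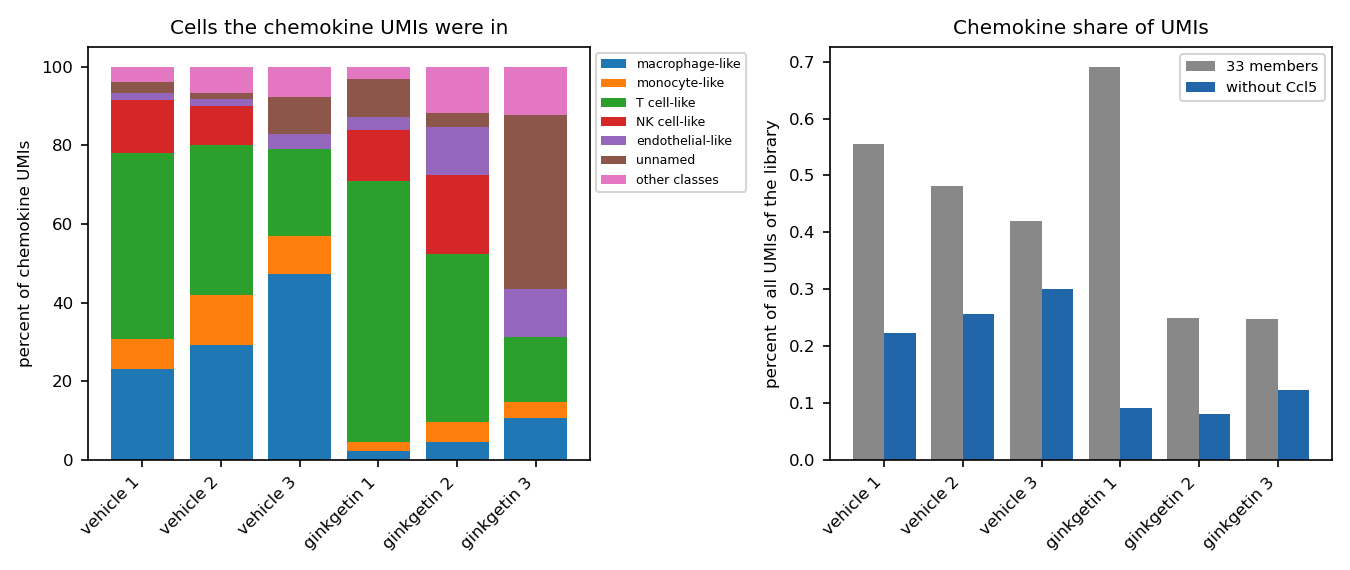
Left, stacked bars of the percent of chemokine UMIs of each library that were in each cell class. Right, chemokine UMIs as a percent of all UMIs of the library for all 33 members (grey) and without Ccl5 (blue). Macrophage-like cells held 23.2 to 47.3% in vehicle and 2.23 to 10.7% in ginkgetin libraries, and without Ccl5 the ginkgetin shares of 0.0802 to 0.123% lie below the vehicle shares of 0.224 to 0.301%.

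The receptors and inducers of chemokines were read from lists chosen for their roles. In macrophage-like cells, 0 of 8 chemokine receptors tested (of 18 listed) were called, with a median log2 fold change of 0.18, against 10.9% of all genes called and a median of 0.02. Of 16 inducers of chemokine genes tested (of 18), 1 was called, the cytokine gene Il6, which was higher (3.06 ± 0.59, adjusted p = 0.0221), a share no higher than that over all genes. In whole libraries, where 12.8% of all genes were called, 4 of 16 receptors were: Ccr1 (-2.26), Ccr2 (-1.13) and Cx3cr1 (-2.18), carried by monocytes and macrophages, were lower, and Cxcr5 (1.34), the Cxcl13 receptor of B cells, was higher. Of 5 atypical receptors, which take up chemokines without signalling through G proteins, Ackr2 (1.29) and Ackr4 (2.99) were higher and Ccrl2 (-2.14) was lower. Of 17 genes tested from the list of inducers, 4 were lower: the interferon regulatory factor Irf7 (-2.08), the toll-like receptor Tlr2 (-1.60) and its adaptor Myd88 (-1.02), and Nfkbia (-1.07), which encodes an inhibitor of NF-kB and is itself an NF-kB target gene. No gene of these lists was called in the other 11 classes. In monocyte-like and macrophage-like cells, Ccr2 was at 0.12 and -0.44, Cx3cr1 at 0.20 and -0.13 and Ccr1 at -1.08 and -0.97. Cxcr5 was at 0.51 in B cell-like cells, and in endothelial-like cells Ackr2 was at -0.40 and Ackr4 at 1.56. In the whole-library values, shares of cell classes and levels inside them cannot be told apart.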

How the data were processed

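The authors deposited raw UMI counts per gene and barcode for each library, with build GRCm38 (mm10) in the submitters' processing notes. The aligner, counter and annotation are not given in the sources used here. The study kept cells with 250 to 5000 UMIs and under 5% mitochondrial counts in Seurat. Here that range was applied to genes detected, and the reading as UMIs was an alternative. Cells were clustered with scanpy 1.11.5 (2000 variable genes, chemokines left out, 30 components, 15 neighbours, Leiden resolution 1) and named where at least 3 markers were detected in at least 25% of cells at 2-fold or more, thresholds set after the data were seen. Doublet calling with Scrublet marked 0.0286 to 0.192% of cells, too few to count as working, so removal of the top 5% of scores was an alternative.

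Counts were summed per library and class (at least 10 cells) and tested with edgeR 4.0.16 (TMM factors, filterByExpr, quasi-likelihood, Benjamini-Hochberg over all genes of the class, called at adjusted p under 0.05 and over 2-fold). DESeq2 1.42.0, limma 3.58.1 (voom), other filters, clusterings and leaving out each library were alternatives. The scripts were tested on simulated data. Shares were compared by exact permutation tests, which cover 3 against 3 libraries with a smallest p of 0.1, and thinned shares left out cells under 1000 UMIs (1144 of 1146 macrophage-like cells of vehicle 3 and 512 of 570 of ginkgetin 3 stayed, and all of the other libraries). Counting limits, 3 UMIs per library, lay between 0.1585 and 8.528 CPM in macrophage-like cells and cover counting error only. Same-numbered libraries of the groups deviated together (correlations of 0.423, 0.437 and 0.787 in macrophage-like cells), although the labels give no shared litter or day and libraries 1 and 2 correlated across numbers as well. The replicate number was used as a block on the strength of this check, which was read from the counts under test and not from the labels. The check set replicate 3 apart but did not pair libraries 1 and 2 by number. In macrophage-like cells, vehicle 2 correlated at 0.456 with ginkgetin 1 and at 0.437 with ginkgetin 2. Calls with the block are therefore an alternative and add no independent support to the unblocked test.

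Members, lists and named pairs were chosen with earlier results of these data known. Text names members called, members of 50 CPM or more whose groups did not overlap, and members of known role beside them. Of 33 members, 25 had a RefSeq promoter window, and of the 4 called members 3 had one outside the gene model.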

Additional observations from a re-analysis of the deposited data

Results flagged for a closer look

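Ccl24, an eosinophil attractant, was flagged because its difference between the groups had opposite signs in related classes, with every library on the same side. In macrophage-like cells all 3 ginkgetin libraries were above all vehicle libraries, with a log2 fold change of 1.01 (adjusted p = 0.0628 in edgeR's quasi-likelihood test). In monocyte-like cells all 3 ginkgetin libraries were below all vehicle libraries, with a log2 fold change of -1.83 (adjusted p = 0.165). The difference between the classes was 2.94 ± 0.37 log2 units (SE, adjusted p = 0.0624, limma), which did not pass the threshold.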

How the results depend on the processing

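Over 24 named pairs of a member and a class and the 12 members called in whole libraries, 639 values under alternatives were computed: 547 kept their direction and side of the threshold, 50 lost the call, 39 gained it and 3 reversed. The reversed values were Cxcl16 in macrophage-like cells without scaling factors (0.18), and, under the filter on UMIs per cell, Pf4 in stellate-like cells (1.23) and Ccl24 in whole libraries (1.43). That filter kept 84 to 217 vehicle and 90 to 431 ginkgetin macrophage-like cells. The 4 calls in macrophage-like cells became 8 with the replicate block, 9 with the barcode set as a term and 7 with DESeq2, while the share of all genes called went from 10.9% to 16.0%, 16.7% and 13.8%, and they became 0 to 5 when 1 replicate was left out. The 4 calls over all classes (1.38% of all genes were called) became 26 with the replicate block (3.92%), 24 with the barcode set as a term (4.14%), 19 with DESeq2 (2.70%), 13 without the gene filter (0.722%), 13 within replicates 1 and 2 (2.45%), 8 under the filter on UMIs (1.21%), 2 with classes merged into lineages (0.698%) and 0 to 6 when 1 replicate was left out. Of the 24 named pairs, 4 were called, and 15, 13 and 10 were with the block, the set term and DESeq2, and 0 to 5 when 1 replicate was left out. The 24 pairs and the 12 members were chosen from these same data, as called or without overlap. Their counts, and the 639 values, are therefore not comparable with the shares of all genes and give no independent support. The block ended none of the 4 calls. The 12 calls in whole libraries became 0 under the filter on UMIs (0 of 12131 genes) and 8 to 12 when 1 replicate was left out. The genes called then ran from 626 of 15103 without ginkgetin 2 (8 members) to 1556 of 14476 without vehicle 3 (11 members). Without ginkgetin 3, 12 members and 1546 of 14336 genes were called. The differences between classes had 0 members called and 1 each without a cell filter. There 240 of 11571 genes were called against endothelial-like cells and 29 of 10793 against monocyte-like cells. With members used in clustering, 1 member was called against monocyte-like cells, where 11 of 10576 genes were called.

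The chemokine share inside macrophage-like cells changed sign easily around its difference of -0.00495 percentage points, to 0.0311 without a cell filter, 0.0129 without high doublet scores, 0.0648 within replicates 1 and 2, 0.0209 without the member with most UMIs, and between -0.0673 and 0.0385 when 1 replicate was left out. The macrophage-like share of chemokine UMIs, lower by 27.4 points as reported (-27.4), was 4.6 points higher under the filter on UMIs. Without scaling factors, 90.3% of calls over all genes in macrophage-like cells were higher, against 53.8%, and the median of all genes moved from 0.02 to 0.51 and that of the members from -0.25 to 0.18. In whole libraries 75.1% of calls were then higher, against 51.3%, with the median moving from 0.04 to 0.36. The cause of these changes was not tested. Depth limits Ccl12, Ccl9 and Ccl22 in ginkgetin macrophage-like cells, which rested on few UMIs.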

Other observations

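Clusters left unnamed also held chemokines. Cluster 18, led by Gzma, Ncr1 and Prf1, had 486 cells that all came from replicate 3 of both groups, with 11720 CPM of Ccl5, 1821 CPM of Xcl1, 1826 CPM of Ccl4 and 695.7 CPM of Ccl3. Cluster 33, led by Gsn, Igfbp6 and Dpt, had 104 cells and 283 of the 311 UMIs of Ccl11, the eosinophil attractant eotaxin, at 313.5 CPM, with 250.4 CPM of Cxcl12. Cluster 34, led by Fcgr4 and Cd300e, had 94 cells, of which 92 were from vehicle 1, with 1024 CPM of Ccl4 and 650.7 CPM of Ccl3. Cluster 28, led by cell cycle genes, had 238 cells and 5804 CPM of Ccl5, and cluster 9, led by Edn1, Adgrg6 and Vwf, had 866 cells and 212.8 CPM of Cxcl16.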
